A study of Mus musculus with 16 samples.

Results

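The genes described here are the potassium channel subunits on the array, taken as every probe set that the platform annotation gives to 1 gene whose symbol starts with Kcn, other than Kcnj3. The rule reads gene symbols and no measured value, but it was set with earlier results of these data known. It gave 163 probe sets of 83 genes, of 45037 probe sets tested. By class, 31 genes encode pore-forming subunits of voltage-gated channels, 14 inward rectifiers and 12 channels with 2 pore domains in each subunit. Another 8 encode channels of the calcium- and sodium-activated family, and 15 encode auxiliary subunits. The remaining 3 genes (Kcnq1ot1, Kcnmb4os1 and Kcnmb4os2) carry a Kcn symbol but are noncoding RNAs and no channel subunits.

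RNA was measured in 2 tissues, ascending aorta and aortic valve, of mice with both copies of the elastin gene (Eln+/+) and in mice that lack 1 copy (Eln+/-), on 16 Affymetrix-type arrays, 4 for each tissue and genotype. All animals were 30 days old and received no treatment. The valve specimen held the cusps together with the annulus and the root, so it is not leaflet tissue alone, and no tissue was pooled. The labels give neither the strain nor the kind of mutation, nor the sex, and leave unsaid if same-numbered aortas and valves share a mouse. Each deposited value is the signal of a probe set relative to its median over the 16 arrays, and it is given here as log2 of that ratio. For 18 of the 163 member probe sets that median was below 1. A log2 ratio of 0 is otherwise the middle of the series, and no value says how strongly one gene is expressed next to another.

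Potassium channels let potassium ions leave the cell and so set the resting membrane potential and end the action potential. In heart muscle, transient outward, delayed rectifier and inward rectifier currents carried by different Kcn proteins shape each beat, and auxiliary subunits set how fast the pores open. In vascular smooth muscle, large-conductance calcium-activated channels and voltage-gated channels oppose contraction by holding the membrane negative. In endothelium, small- and intermediate-conductance calcium-activated channels and inward rectifiers take part in relaxation of the vessel wall.

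The targeted gene Eln, read by its more variable probe set, had mean log2 ratios of 0.30 ± 0.19 in Eln+/+ aorta, -0.12 ± 0.35 in Eln+/- aorta, -0.44 ± 0.58 in Eln+/+ valve and -1.71 ± 0.78 in Eln+/- valve (SD, n = 4 each). Its difference between genotypes did not pass the threshold in aorta (-0.42 ± 0.34 SE, limma adjusted p = 0.90) or in valve (-1.27 ± 0.34, adjusted p = 0.39). Markers of cardiac muscle were present in the valve specimens: the mean over 18 such genes lay between 0.51 and 1.50 on the Eln+/+ valve arrays, between 1.53 and 2.30 on the Eln+/- valve arrays, and between -3.57 and -0.82 on the 8 aorta arrays. The 2 valve groups did not overlap in this mean. Smooth muscle markers (13 genes) ran the other way, from -0.76 to 0.39 in aorta and from -1.71 to 0.24 in valve. In the Eln+/- aorta, replicates 2 and 4 stood apart with T cell and thymocyte markers at 1.28 and 0.66, against -0.42 to -0.09 on the other 14 arrays. Xist minus the Y-linked genes was between 0.27 and 0.84 on all 8 Eln+/- arrays and on 2 Eln+/+ arrays, aorta replicate 4 and valve replicate 2, and between -11.05 and -10.65 on the other 6 Eln+/+ arrays. Sex as read from these genes thus largely followed genotype. Sex and genotype cannot be cleanly told apart in the genotype comparisons or the interaction. Whether RNA per cell or the number of cells of a type differed cannot be told apart in such whole-tissue samples.

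Between the tissues, 10 of 15 genes listed for cardiac muscle potassium currents were called higher in Eln+/- valve than in Eln+/- aorta, and 3 of 9 listed for vascular smooth muscle were called lower and 1 higher. In Eln+/+ mice 1 of the 15 and 0 of the 9 were called by limma. In Eln+/- mice, 33 of the 163 probe sets passed the threshold (limma, Benjamini-Hochberg adjusted p under 0.05), 23 higher and 10 lower in the valve, which is 20.2% against 5.81% of all probe sets tested (3.27% higher and 2.54% lower). They belong to 23 genes, 17 higher and 6 lower. The count of 33 was 16 without valve Eln+/- replicate 3, 17 without aorta Eln+/- replicate 1, 20 without valve Eln+/- replicate 1, 21 without aorta Eln+/- replicate 4 and 15 without aorta Eln+/- replicates 2 and 4 together. In Eln+/+ mice, 2 probe sets passed, both higher in the valve, which is 1.23% against 0.946% of all probe sets. At an unadjusted p under 0.05 there were 39 members in Eln+/+, 19 higher and 20 lower, or 23.9% against 11.8% of all, and 55 in Eln+/-, or 33.7% against 19.0%. The 2 were probe sets of Kcnj5 and Kcna1, and both passed in Eln+/- too. The count of 2 was 1 without aorta Eln+/+ replicate 1, valve Eln+/+ replicate 1 or 4, or valve Eln+/- replicate 4, and 7 without valve Eln+/- replicate 3. Of the 33 probe sets called in Eln+/-, 30 had the same sign in Eln+/+ and all 33 were larger in Eln+/-, but the members were counted because they passed in Eln+/- and none passed the test of the difference between the genotypes.

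**Figure D1:**
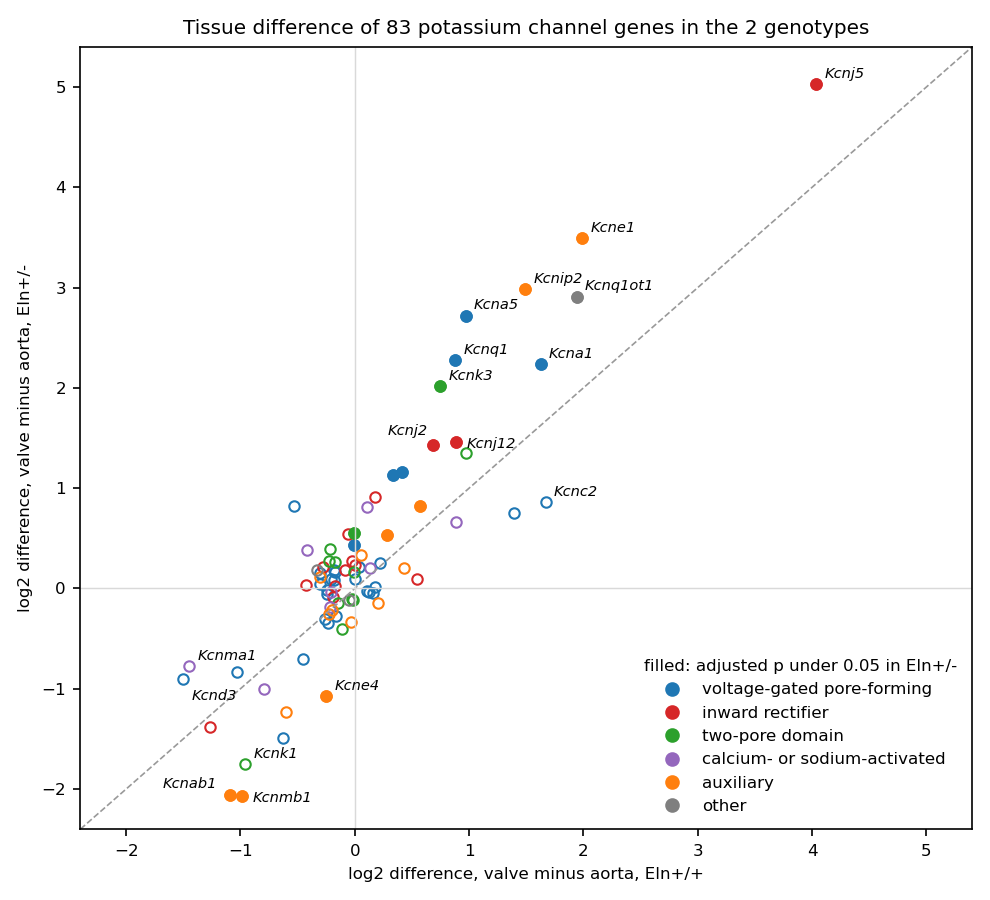
Each point is 1 of the 83 genes, shown by its most variable probe set, with the log2 difference of valve minus aorta in Eln+/+ mice on the x axis and in Eln+/- mice on the y axis (4 arrays a group). Filled points have an adjusted p under 0.05 in Eln+/-, colours give the class, and the dashed line marks equal differences. Kcnj5 stands alone at the upper right, and Kcnab1 and Kcnmb1 lie lowest on the y axis.

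Each of the 83 genes was read by its most variable probe set (highest SD), and by this reading 16 genes were higher and 3 lower in Eln+/- valve than in Eln+/- aorta. By class and by probe set, 8 of 65 voltage-gated, 5 of 27 inward rectifier, 3 of 18 with 2 pore domains and 6 of 29 auxiliary probe sets were called higher. Called lower were 6 auxiliary, 2 inward rectifier and 2 calcium- or sodium-activated probe sets, and no voltage-gated one. Of all probe sets tested, 3.27% were called higher and 2.54% lower in this comparison. The lack of a lower call among the 65 voltage-gated probe sets was not tested against that share. In 16 genes with several probe sets, these differed in sign.

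Among inward rectifiers, which hold the resting potential, Kcnj5 differed most between the tissues. Kcnj5 encodes a G protein-gated subunit that opens when the vagus nerve acts on the atrium. Its log2 ratios were -3.41, -1.93, -2.60 and -2.94 on the Eln+/+ aorta arrays 1 to 4 and -2.76, -3.18, -1.54 and -3.46 on the Eln+/- aorta arrays. In the valve, Kcnj5 read 1.25, 0.96, 0.73 and 2.33 in Eln+/+ and 2.88, 1.85, 2.90 and 1.55 in Eln+/-. Every valve array lay far above every aorta array, and the highest aorta arrays, Eln+/+ replicate 2 and Eln+/- replicate 3, were also the 2 aorta arrays with the highest cardiac muscle marker mean. The difference was 4.04 ± 0.46 on the log2 scale in Eln+/+ (SE, 16.4-fold, limma adjusted p = 0.00065) and 5.03 ± 0.46 in Eln+/- (32.7-fold, adjusted p = 7.9e-05). A second Kcnj5 probe set gave smaller differences of 1.05 ± 0.28 (adjusted p = 0.10) and 1.47 ± 0.28 (adjusted p = 0.0057).

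Kcnj12 and Kcnj2 encode the strong inward rectifiers that stabilise the resting potential of ventricular muscle, and Kcnj2 is also found in endothelium. Kcnj12 read -0.27, -0.25, -0.78 and -0.24 in Eln+/+ aorta, -0.69, -0.38, -0.66 and -0.58 in Eln+/- aorta, 0.21, 0.40, 0.47 and 0.94 in Eln+/+ valve and 0.67, 0.70, 1.68 and 0.48 in Eln+/- valve. The tissues did not overlap in either genotype, and the difference was 0.89 ± 0.23 in Eln+/+ (adjusted p = 0.098) and 1.46 ± 0.23 in Eln+/- (2.75-fold, adjusted p = 0.0017). The Eln+/+ difference of Kcnj12 passed without valve Eln+/- replicate 3 (adjusted p = 0.021), an array outside that comparison. Kcnj2 read -1.15, -0.37, 0.54 and -0.87 in Eln+/+ aorta, -0.74, -0.39, -0.71 and -0.85 in Eln+/- aorta, 0.64, -0.13, 0.26 and 0.12 in Eln+/+ valve and 0.61, 0.68, 0.89 and 0.85 in Eln+/- valve. For Kcnj2 the Eln+/+ tissues overlapped through aorta replicate 3 (difference 0.69 ± 0.28, adjusted p = 0.34), and the Eln+/- tissues did not (1.43 ± 0.28, 2.70-fold, adjusted p = 0.0067). Without that aorta array the Eln+/+ difference of Kcnj2 passed as well (1.02, adjusted p = 0.040). Kcnj11, the pore of the channel closed by ATP, differed by 0.92 ± 0.29 in Eln+/- and did not pass by its more variable probe set (adjusted p = 0.074), while its other probe set did (0.75 ± 0.17, adjusted p = 0.014); the first passed without valve Eln+/- replicate 4 (adjusted p = 0.017). Of the 3 probe sets of Kcnj15, 2 were called lower in Eln+/- valve, and its shown probe set missed the threshold (-1.38 ± 0.39, adjusted p = 0.052), which it passed without aorta or valve Eln+/- replicate 2 (adjusted p = 0.038 and 0.025). In Eln+/+ Kcnj15 passed without valve Eln+/- replicate 3 (-1.27, adjusted p = 0.030).

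Kcnq1 and Kcne1 form the slow delayed rectifier of heart muscle, the pore and its auxiliary subunit. Kcnq1 read -0.50, -0.12, -0.37 and -0.05 in Eln+/+ aorta, -0.67, -0.35, -0.01 and -0.29 in Eln+/- aorta, 0.37, 0.44, 0.01 and 1.65 in Eln+/+ valve and 2.30, 1.21, 2.56 and 1.73 in Eln+/- valve. In Eln+/+ valve the array of replicate 4 stood above the other three, which were close to the aorta arrays. The tissue difference of Kcnq1 was 0.88 ± 0.32 in Eln+/+ (adjusted p = 0.28) and 2.28 ± 0.32 in Eln+/- (4.85-fold, adjusted p = 0.00075). Kcne1 read -0.83, -0.17, -0.98 and -1.55 in Eln+/+ aorta, -1.81, -1.35, -0.04 and -0.68 in Eln+/- aorta, 1.80, 1.68, 0.04 and 0.91 in Eln+/+ valve and 1.35, 2.84, 3.34 and 2.56 in Eln+/- valve. No valve array of Kcne1 overlapped the aorta arrays of its genotype. Its difference was 1.99 ± 0.48 in Eln+/+ (adjusted p = 0.067) and 3.49 ± 0.48 in Eln+/- (11.3-fold, adjusted p = 0.00061), and its second probe set passed in Eln+/- too (1.69, adjusted p = 0.0021). In Eln+/+ Kcne1 passed without valve Eln+/+ replicate 3 (2.35, adjusted p = 0.035) and without valve Eln+/- replicate 1 (adjusted p = 0.044).

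The transient outward current of the mouse heart is carried by Kcnd2, Kcnd3 and Kcna4 pores, with Kcnip2 as a calcium-binding auxiliary subunit. Kcnip2 read -1.82, -0.34, -0.96 and -0.91 in Eln+/+ aorta, -1.81, -1.34, -0.17 and -2.20 in Eln+/- aorta, 0.20, 0.56, 0.15 and 1.00 in Eln+/+ valve and 1.09, 0.60, 2.84 and 1.88 in Eln+/- valve. By this probe set all valve arrays of Kcnip2 were above all aorta arrays, with a difference of 1.49 ± 0.47 in Eln+/+ (adjusted p = 0.20) and 2.98 ± 0.47 in Eln+/- (7.90-fold, adjusted p = 0.0016). The other Kcnip2 probe sets were negative in Eln+/+, at -0.10 and -0.31. In Eln+/- they gave 2.14, which was called, and 0.03, which was not. Kcna4 read between -0.37 and 0.01 on the 8 aorta arrays, 0.05, 0.11, -0.34 and 1.04 in Eln+/+ valve and 0.33, 1.21, 1.39 and 0.94 in Eln+/- valve. It passed in Eln+/- (1.16 ± 0.26, 2.23-fold, adjusted p = 0.016) and not in Eln+/+ (0.41 ± 0.26, adjusted p = 0.57), and the Eln+/- call of Kcna4 was lost without aorta replicate 1 (adjusted p = 0.051) or valve replicate 3 (adjusted p = 0.063). The other Kcna4 probe set, at 0.43 in Eln+/- and -0.10 in Eln+/+, was not called. Kcnd2 passed narrowly in Eln+/- (1.13 ± 0.31, 2.19-fold, adjusted p = 0.043), by 1 of its 4 probe sets. These ranged from 0.06 to 1.13 in Eln+/- and from -0.32 to 0.54 in Eln+/+. For the called probe set, Eln+/- valve replicate 1 at 2.21 stood far above the others at 0.34, 0.59 and 0.65. The difference of Kcnd2 was 0.71 without that array (adjusted p = 0.052), and 15 of 28 alternatives lost its call, among them leaving out any 1 of the other Eln+/- arrays but valve replicate 2, or Eln+/+ aorta replicate 1 or 4, or Eln+/+ valve replicate 1, 3 or 4. Kcnd3 was the exception in this group by its most variable probe set, with valve arrays spread from -2.50 to 0.81. Its differences were -1.50 ± 0.56 in Eln+/+ (adjusted p = 0.30) and -0.91 ± 0.56 in Eln+/- (adjusted p = 0.43). The other Kcnd3 probe sets ranged from -0.78 to -0.40 in Eln+/+ and from -0.65 to 0.22 in Eln+/-, and were not called.

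Kcna5 carries an ultra-rapid delayed rectifier in heart muscle and is also a voltage-gated channel of vascular smooth muscle. Kcna5 read -0.36, -0.74, -1.13 and 0.14 in Eln+/+ aorta, -1.07, -1.96, -0.27 and -2.53 in Eln+/- aorta, 0.42, -0.16, 1.12 and 0.41 in Eln+/+ valve and 2.09, 0.19, 1.75 and 1.02 in Eln+/- valve. Eln+/- tissues were separate for Kcna5 and Eln+/+ tissues were not, with differences of 2.72 ± 0.48 (6.59-fold, adjusted p = 0.0032) and 0.97 ± 0.48 (adjusted p = 0.45). Kcnk3, an acid-sensitive channel with 2 pore domains that carries background potassium current, read -0.96, -0.55, -0.80 and -2.07 in Eln+/- aorta and 1.22, 0.47, 1.88 and 0.11 in Eln+/- valve. It passed in Eln+/- (2.02 ± 0.50, 4.05-fold, adjusted p = 0.026) but not in Eln+/+ (0.75 ± 0.50, adjusted p = 0.59), where aorta replicate 4 at 0.78 lay among the valve arrays. The Eln+/- call of Kcnk3 was lost without aorta replicate 1 or 4 or valve replicate 1 or 3 (adjusted p between 0.056 and 0.095). Of the 3 Kcnk3 probe sets, 2 were called in Eln+/-, and the uncalled one gave 0.58 there and -0.11 in Eln+/+.

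**Figure D2:**
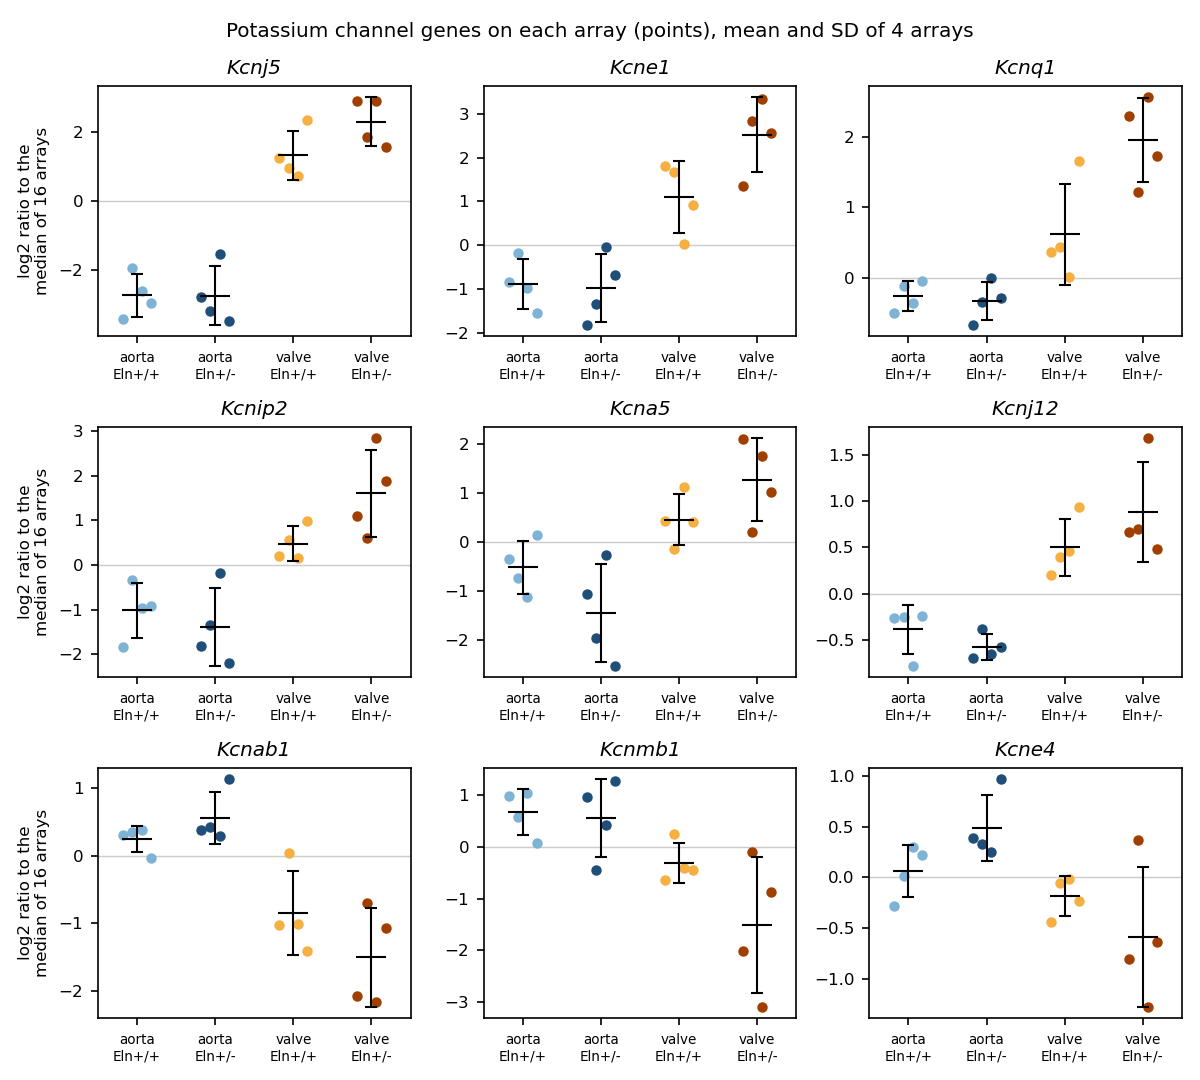
Points are single arrays of 9 genes in the 4 groups, with the log2 ratio to the median of the 16 arrays on the y axis and the mean and SD of 4 arrays as black marks. The y axes differ between genes. Aorta and valve are separate in both genotypes for Kcnj5, Kcne1, Kcnq1, Kcnip2 and Kcnj12, while Kcnmb1 and Kcne4 overlap in Eln+/-.

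Of the 15 measured genes listed for cardiac muscle potassium currents, 14 had a positive tissue difference in Eln+/- and 10 of them passed, with a median of 1.43 against 0.00 over all genes, of which 802 of 18193 were called higher. In Eln+/+ 12 were positive, 1 passed, against 217 of all 18193 genes called higher, and the median was 0.69. The genes of this list that did not pass in Eln+/- by their shown probe set were Kcnj11, Kcnd3, Kcnh2 (0.82 ± 0.30, adjusted p = 0.14), Kcnn2 (0.82 ± 0.27, adjusted p = 0.097) and Kcne2 (0.12 ± 0.22, adjusted p = 0.84). Kcnh2 is the pore of the rapid delayed rectifier, Kcne2 an auxiliary subunit and Kcnn2 a small-conductance calcium-activated channel. All 18 cardiac muscle markers were also called higher in Eln+/- valve than aorta, with a median difference of 4.45, and 13 of 18 were in Eln+/+, with a median of 3.36. Their part in the channel differences between tissues was not tested.

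The 3 genes of the smooth muscle list called lower in Eln+/- valve by their most variable probe set, Kcnab1, Kcnmb1 and Kcne4, encode auxiliary subunits. Kcnab1, a beta subunit of voltage-gated channels, read 0.31, 0.34, 0.38 and -0.04 in Eln+/+ aorta, 0.38, 0.43, 0.29 and 1.12 in Eln+/- aorta, -1.02, 0.04, -1.01 and -1.40 in Eln+/+ valve and -2.07, -0.70, -2.16 and -1.07 in Eln+/- valve. The Eln+/- tissues did not overlap for Kcnab1, and it fell by 2.06 ± 0.34 on the log2 scale (SE, adjusted p = 0.0020), with -1.61 by its other probe set (adjusted p = 0.0026). In Eln+/+ the difference was -1.10 ± 0.34 (adjusted p = 0.18), and valve replicate 2 lay among the aorta arrays.

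Kcnmb1 is the beta subunit that gives the smooth muscle large-conductance channel its calcium sensitivity. Its log2 ratios were 0.99, 0.58, 1.05 and 0.08 in Eln+/+ aorta, 0.97, -0.44, 0.42 and 1.27 in Eln+/- aorta, -0.64, 0.26, -0.40 and -0.45 in Eln+/+ valve and -2.00, -0.09, -3.09 and -0.87 in Eln+/- valve. Kcnmb1 was lower in Eln+/- valve by limma (-2.07 ± 0.51, 0.239 times, adjusted p = 0.026) although the groups overlapped, because aorta replicate 2 lay below valve replicate 2. That aorta array also had the lowest smooth muscle marker mean of all aorta arrays (-0.76), and valve replicate 3, lowest in Kcnmb1, had the lowest of all arrays (-1.71). The call was lost without aorta Eln+/- replicate 1, 3 or 4 or valve Eln+/- replicate 1 or 3 (adjusted p between 0.054 and 0.087). In Eln+/+ the difference was -0.99 ± 0.51 (adjusted p = 0.47).

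Kcne4, an auxiliary subunit that damps voltage-gated channels, read 0.39, 0.33, 0.25 and 0.96 in Eln+/- aorta and -0.80, 0.36, -1.28 and -0.64 in Eln+/- valve. It passed there with overlapping groups (-1.07 ± 0.27, adjusted p = 0.030) and not in Eln+/+ (-0.25 ± 0.27, adjusted p = 0.77), and its call was lost without aorta Eln+/- replicate 1 or 4 or valve Eln+/- replicate 1, 3 or 4 (adjusted p between 0.062 and 0.11). Kcnma1, the pore partner of Kcnmb1, was not called by its most variable probe set (-0.77 ± 0.47 in Eln+/-, adjusted p = 0.41), but 2 of its 5 probe sets were called lower (-0.89 ± 0.25, adjusted p = 0.046, and -1.26 ± 0.33, adjusted p = 0.033). Of 9 measured genes listed for vascular smooth muscle currents, 6 were negative in Eln+/-, 3 were called lower and Kcna5 was called higher, with a median of -0.70. Kcnq5 (-0.70 ± 0.36), Kcnk6 (-0.41 ± 0.33), Kcna2 (0.76 ± 0.43) and Kcnj8 (0.03 ± 0.27), which is the vascular pore of the ATP-sensitive channel, did not pass in Eln+/-. In Eln+/+ Kcna2 differed by 1.39 ± 0.43 (adjusted p = 0.19) and passed without aorta Eln+/- replicate 2 (adjusted p = 0.0053), where it read -2.54. This holds for its most variable probe set. The other Kcna2 probe sets gave 0.30, 0.03 and -0.05 in Eln+/+ and were not called. In Eln+/+, 7 of the 9 were negative, 0 passed by limma and the median was -0.42. Of 13 smooth muscle markers, 6 were called lower and 1 higher in Eln+/- valve, and their part in the channel differences was not tested. Of all probe sets tested, 2.54% were called lower and 3.27% higher in that comparison.

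**Figure D3:**
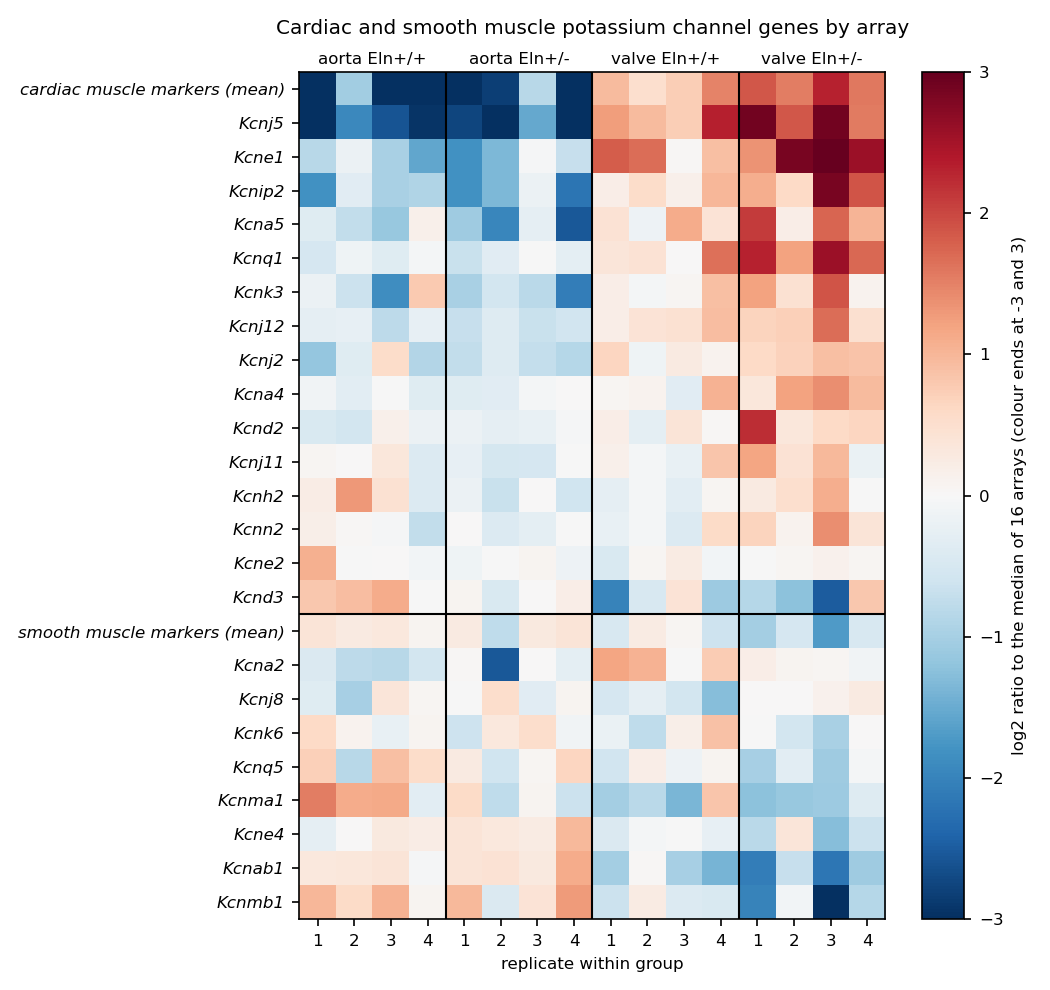
Rows are the mean of the cardiac muscle markers, 15 cardiac muscle potassium channel genes, the mean of the smooth muscle markers and 8 smooth muscle potassium channel genes, and columns are the 16 arrays by group and replicate. Colour gives the log2 ratio to the median of the 16 arrays and ends at -3 and 3. Kcna5, which is on both lists, is drawn once among the cardiac genes. The valve columns are mostly red in the upper block, and within the aorta Eln+/+ replicate 2 and Eln+/- replicate 3 have the palest cardiac marker cells.

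Promoter sequences were compared for genes that moved in opposite directions between the tissues. RefSeq windows of 250 bases before the start (build GRCm38.p6) were found for 63 of the 83 genes, as 88 windows. Shown are the windows of the 2 genes with the largest positive differences in Eln+/- that had one, Kcnj5 (chr9:32344345-32344594, minus strand) and Kcnip2 (chr19:45816064-45816313, minus strand), and of Kcnmb1 (chr11:33962763-33963012, plus strand), which had the most negative. Capitals mark matches to a motif searched on both strands.
Kcnj5: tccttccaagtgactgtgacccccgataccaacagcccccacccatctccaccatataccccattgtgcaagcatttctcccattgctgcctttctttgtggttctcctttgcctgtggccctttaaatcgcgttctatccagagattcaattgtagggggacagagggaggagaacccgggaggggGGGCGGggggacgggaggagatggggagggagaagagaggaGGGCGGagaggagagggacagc
Kcnip2: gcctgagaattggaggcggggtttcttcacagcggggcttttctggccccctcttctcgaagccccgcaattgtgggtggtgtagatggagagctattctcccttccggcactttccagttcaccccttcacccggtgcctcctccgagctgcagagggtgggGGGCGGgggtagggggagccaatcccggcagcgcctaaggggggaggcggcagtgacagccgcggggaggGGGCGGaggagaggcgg
Kcnmb1: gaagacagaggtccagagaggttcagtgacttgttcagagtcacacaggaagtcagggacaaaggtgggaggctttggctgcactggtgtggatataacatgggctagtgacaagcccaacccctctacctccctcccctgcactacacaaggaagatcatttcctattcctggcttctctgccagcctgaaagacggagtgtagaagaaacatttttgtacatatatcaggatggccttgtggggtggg
Kcnj5 and Kcnip2 each held 2 GC boxes (GGGCGG), and Kcnmb1 held no match to any motif searched. A GC box was also found for Kcnab1 and Kcnma1, which both had probe sets called lower in Eln+/- valve. The GC box occurred in 40 of the 88 windows and in 32.7% of all 32851 promoter windows, and this motif was added after the results were known. The CArG box, the site of serum response factor, was in 0 of the 88 windows (1.47% of all), the MEF2 site in 2 (2.92%), the GATA motif AGATAA in 3 (9.99%) and the T-box motif AGGTGTGA in 1 (1.12%). CArG and MEF2 patterns are both rich in A and T and can overlap, and none of these matches was in Kcnj5, Kcnip2 or Kcnmb1. A match of letters describes the window only.

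Kcna1, a voltage-gated channel known from axons, was the other gene called in both genotypes, through 1 of its 4 probe sets. That probe set read -0.79, -1.45, -1.65 and -0.24 in Eln+/+ aorta, -1.86, -1.44, -0.13 and -1.07 in Eln+/- aorta, 0.80, 0.24, 0.72 and 1.34 in Eln+/+ valve and 1.34, 0.12, 1.08 and 0.45 in Eln+/- valve. Its tissues were separate in both genotypes, with differences of 1.81 ± 0.39 (adjusted p = 0.037) and 1.87 ± 0.39 (adjusted p = 0.0098). The most variable Kcna1 probe set overlapped between tissues and passed only the Eln+/- test (2.24 ± 0.56, adjusted p = 0.027), a call lost without aorta Eln+/- replicate 1, 2 or 4 or valve Eln+/- replicate 1 or 3 (adjusted p between 0.056 and 0.095). Among 18 measured genes listed for neurons and Schwann cells, Kcna1 was the 1 gene called in Eln+/-, 10 of the 18 were negative and the median was -0.03. Kcnc2, a fast voltage-gated channel of neurons, was named after its values were seen as the gene farthest on the Eln+/+ side, with 1.67 ± 0.42 in Eln+/+ (adjusted p = 0.084) and 0.86 ± 0.42 in Eln+/- (adjusted p = 0.29). In Eln+/+ it passed without aorta Eln+/+ replicate 2 (adjusted p = 0.041) or aorta Eln+/- replicate 4 (adjusted p = 0.040). Of 5 endothelial channel genes only Kcnj2 was called in Eln+/-. Over all probe sets tested the share called was 5.81%, so 1 call in a list of 18 or 5 genes is no result about the list. Kcnn3, Kcnn4, Kcnk2 and Kcne3 did not pass, at -0.19, -1.001, 1.35 and -0.34, though Kcnk2 did without valve Eln+/- replicate 1 (1.69, adjusted p = 0.038), and Kcne3 was 0.06 without aorta Eln+/- replicate 2.

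Other members called higher in Eln+/- valve had smaller differences. They were Kcnmb4, a large-conductance channel beta subunit (0.82 ± 0.19, adjusted p = 0.019), Kcne1l, an auxiliary subunit (0.53 ± 0.14, adjusted p = 0.033), Kcng2, a modifying voltage-gated subunit (0.43 ± 0.11, adjusted p = 0.033), and Kcnk13, a channel with 2 pore domains (0.56 ± 0.15, adjusted p = 0.036). Kcnmb4, Kcne1l and Kcnk13 fell outside the rule for naming genes and were named after their values were seen. Kcnmb4 lost its call without valve Eln+/- replicate 3, Kcne1l and Kcng2 each lost it without aorta Eln+/- replicate 1, 2 or 3 or valve Eln+/- replicate 1 or 3, Kcne1l also without valve Eln+/- replicate 4 and Kcng2 also without valve Eln+/- replicate 2, and Kcnk13 without aorta Eln+/- replicate 1, 3 or 4 or valve Eln+/- replicate 1 or 2. Kcnip4, an auxiliary subunit of the same family as Kcnip2, was called lower by 1 of 3 probe sets (-1.24 ± 0.23, adjusted p = 0.0053), and its most variable one (-1.23 ± 0.40, adjusted p = 0.088) passed without valve Eln+/- replicate 2 or 4. The noncoding Kcnq1ot1, transcribed antisense within Kcnq1, was called higher by 1 of its 6 probe sets (2.91 ± 0.48, adjusted p = 0.0020), and the other five did not pass. In Eln+/+ that probe set passed without valve Eln+/- replicate 3 (adjusted p = 0.045). Whether its probes also take up signal from Kcnq1 itself was not tested.

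Genes that work with these channels were followed from lists of partners, other cation channels and regulators, beside 802 genes called higher and 483 called lower of all 18193 in Eln+/-. Of 12 partners, 3 were called higher in Eln+/- valve: Nedd4l, a ubiquitin ligase that acts on channels (2.04 ± 0.47, adjusted p = 0.017), Abcc8, a sulphonylurea receptor (1.65 ± 0.35, adjusted p = 0.011), and Hcn2, a pacemaker channel (0.86 ± 0.17, adjusted p = 0.0074). Abcc9, the receptor paired with Kcnj8 in vessels, did not pass (-0.67 ± 0.23, adjusted p = 0.11). Of 21 other cation channel and sodium pump genes, 4 were called higher, namely Cacna2d2 (4.81 ± 0.41, adjusted p = 7.9e-05), Atp1b1 (3.56 ± 0.74, adjusted p = 0.010), Cacna1h (2.71 ± 0.50, adjusted p = 0.0044) and Cacna1g (1.72 ± 0.24, adjusted p = 0.00070). Cacna2d2 was the only one of these 33 genes called in Eln+/+ (4.25 ± 0.41, adjusted p = 0.00018). Of 9 regulators of cardiac channel genes, Tbx5, Tbx3, Irx4 and Nkx2-5 were called higher in Eln+/- valve, at 3.09, 2.25, 1.37 and 1.17, and Hey2 lower at -1.11.

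Between genotypes in the aorta, no potassium channel probe set passed, against a background of 0% of all 45037 probe sets by limma. At an unadjusted p under 0.05 there were 7 of 163 member probe sets, or 4.29% against 5.51% of all. The 6 genes of lowest p were Kcnh2 (-0.75 ± 0.30), Kcnma1 (-1.05 ± 0.47), Kcnk4, a mechanosensitive channel with 2 pore domains (-0.31 ± 0.15), its relative Kcnk10 (-0.35 ± 0.17), Kcna5 (-0.94 ± 0.48) and Kcnip3, a calcium-binding auxiliary subunit (-0.42 ± 0.22), each with an adjusted p of 0.89. All 6 were lower in Eln+/-, and their groups overlapped. By Xist, sex largely followed genotype on the aorta arrays. Kcnma1 read 1.53, 1.11, 1.13 and -0.32 in Eln+/+ aorta and 0.58, -0.77, 0.08 and -0.65 in Eln+/- aorta, so that 3 of the 4 Eln+/+ arrays lay above all Eln+/- arrays. These are the readings of the most variable of 5 Kcnma1 probe sets, and the others differed less between genotypes in the aorta. The other Kcnk10 probe set differed less too.

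Signs in the aorta were uneven although no probe set passed. Of the 163 member probe sets, 130 had a lower mean in Eln+/- aorta, which is 79.8% against 53.2% of all probe sets, and their median difference was -0.12 against -0.02. The per-array medians of the members were 0.03, 0.08, 0.07 and -0.07 in Eln+/+ aorta and -0.05, -0.20, -0.16 and -0.00 in Eln+/- aorta, and the groups overlapped through Eln+/+ replicate 4 and Eln+/- replicates 1 and 4. The count of lower probe sets was between 113 and 133 with any 1 aorta array left out, 123 without Eln+/- replicates 2 and 4, and 111 with the Xist to Y-linked difference as a covariate. Probe sets of 1 gene and of related genes are not independent, so the count carries no test.

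**Figure D4:**
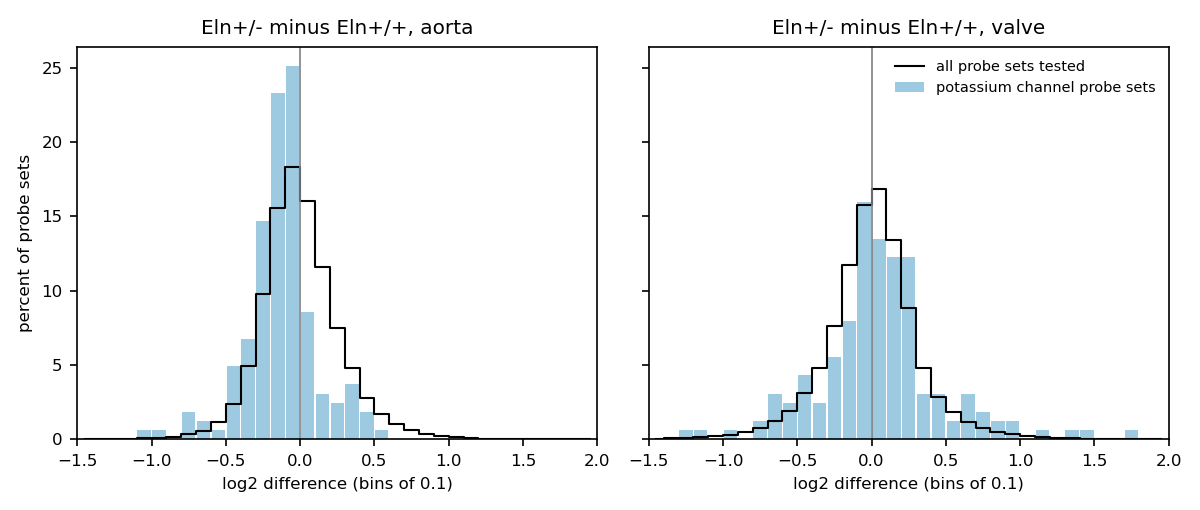
Bars give the percent of the 163 potassium channel probe sets, and the line the percent of all 45037 probe sets, by log2 difference of Eln+/- minus Eln+/+ in bins of 0.1, for aorta (left) and valve (right). Values beyond -1.5 and 2 are not drawn. In the aorta the bars lie to the left of the line, with a median of -0.12 against -0.02, and in the valve the medians are 0.03 and 0.01.

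Between genotypes in the valve, no member probe set passed either, and 0% of all probe sets did by limma. At an unadjusted p under 0.05 there were 24 of 163 members, 20 higher and 4 lower in Eln+/-, or 14.7% against 8.60% of all. The 6 genes of lowest p, all higher in Eln+/-, were Kcnq1 (1.33 ± 0.32, adjusted p = 0.37), Kcnn1, a small-conductance calcium-activated channel (0.64 ± 0.17, adjusted p = 0.40), Kcne1 (1.42 ± 0.48, adjusted p = 0.43), Kcna4 (0.75 ± 0.26, adjusted p = 0.43), Kcnd2 (0.87 ± 0.31, adjusted p = 0.45) and Kcnj8 (0.76 ± 0.27, adjusted p = 0.45). Kcnn1 read -0.09, -0.62, -0.19 and -0.31 in Eln+/+ valve and 0.10, 0.05, 0.57 and 0.62 in Eln+/- valve. Kcnj8 read -0.50, -0.28, -0.55 and -1.29 in Eln+/+ valve and 0.00, 0.00, 0.13 and 0.27 in Eln+/- valve. The valve groups did not overlap for Kcnn1 and Kcnj8, while the other 4 genes overlapped. For Kcnn1 and Kcnj8 the two-sided exact permutation test gave p = 0.0286, the smallest it can give with 4 against 4 arrays. Both genes were picked by their p on these same arrays, so neither the permutation p nor the lack of overlap is separate evidence. The share of all probe sets with separate valve groups is not given here.

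Of the 15 cardiac channel genes, 14 had a higher mean in Eln+/- valve, with a median of 0.67 against 0.03 over all genes, and 7 of the 9 smooth muscle channel genes had a lower one, with a median of -0.41. None of them passed. All 18 cardiac muscle markers were higher in Eln+/- valve, with a median of 0.89, and 12 of 13 smooth muscle markers lower, with a median of -0.76, and 0 of either passed by limma. With the cardiac muscle marker mean as a covariate in the 8 valve arrays, 58 of the 163 member probe sets changed sign and again 0 passed. The cardiac list then had 10 of 15 higher with a median of 0.04, and the smooth muscle list 4 of 9 lower with a median of 0.08. The difference of Kcnq1 went from 1.33 to 0.00 ± 0.37 (SE) and that of Kcnj5 from 0.98 to -0.47 ± 0.37. That of Kcnip2 went from 1.13 to 0.04 ± 0.60. The difference of Kcne1 went from 1.42 to 1.30 ± 0.84 and that of Kcnj8 from 0.76 to 1.29 ± 0.29. That of Kcnd2 went from 0.87 to 0.65 ± 0.65, and by another Kcnd2 probe set from 0.97 to 0.38 ± 0.44. Because the 2 valve groups do not overlap in the covariate, the fit extends it beyond the arrays of each group, and genotype and muscle content cannot be told apart. By Xist, sex too largely followed genotype in the valve. Other marker means also separated the valve groups: 12 skeletal muscle markers lay between -0.20 and 0.07 in Eln+/+ and between 0.16 and 0.46 in Eln+/-, and 9 fibroblast markers between 0.17 and 0.39 in Eln+/+ and between -0.20 and 0.16 in Eln+/-. Their part in the channel differences was not tested.

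**Figure D5:**
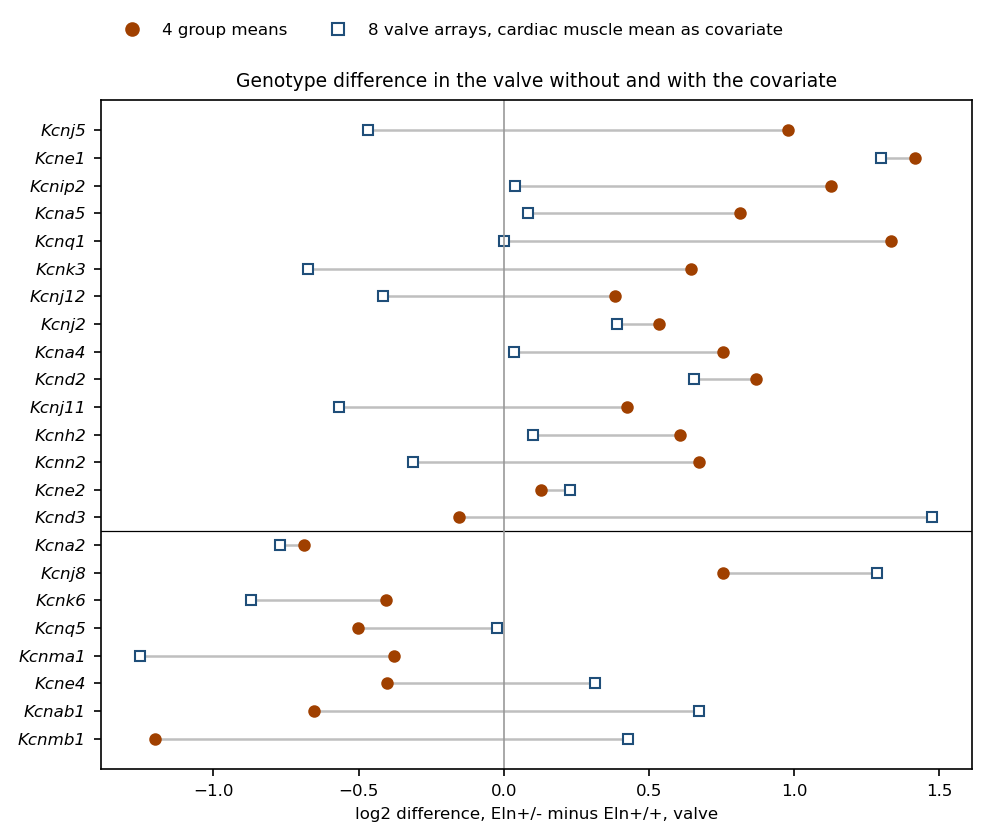
For 15 cardiac (above the line) and 8 smooth muscle (below) channel genes, filled circles give the log2 difference of Eln+/- minus Eln+/+ valve from the fit of 4 group means and open squares the same from the 8 valve arrays with the cardiac muscle marker mean as a covariate. Kcnq1 moves from 1.33 to 0.00 and Kcnj5 from 0.98 to -0.47, while Kcne1 moves from 1.42 to 1.30. Errors are not drawn, and the SE of the Kcne1 square is 0.84.

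The test of whether the tissue difference itself changed with genotype called 0% of all probe sets and no member by limma. At an unadjusted p under 0.05 there were 24 members, 21 positive and 3 negative, or 14.7% against 7.72% of all. The 6 genes of lowest p were Kcnn1 (0.80 ± 0.24), Kcnh2 (1.35 ± 0.43), Kcnq1 (1.40 ± 0.45), Kcnk4 (0.61 ± 0.21), Kcnmb4os1 (0.51 ± 0.18) and Kcng2 (0.44 ± 0.16), each with an adjusted p of 0.62. Kcnh2 read 0.23, 1.29, 0.46 and -0.42 in Eln+/+ aorta, -0.18, -0.67, 0.02 and -0.59 in Eln+/- aorta, -0.28, -0.05, -0.31 and 0.07 in Eln+/+ valve and 0.28, 0.49, 1.10 and -0.02 in Eln+/- valve. Its Eln+/- mean was the lower one in the aorta and the higher one in the valve, with overlapping groups in both tissues. All 15 cardiac channel genes had a positive interaction, with a median of 0.79 against 0.04 over all genes, as did 17 of the 18 cardiac muscle markers, with a median of 1.01. The interaction uses the same arrays as the genotype and tissue comparisons and is no separate evidence.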

How the data were processed

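The authors' table holds, per the labels, RNA amplified from small amounts of single specimens, biotin-labelled and hybridised to 16 arrays, with RMA named in the submitters' processing notes; no genome build is given in the sources used here. The authors deposited linear ratios: the median over the arrays was 1 for 39780 of 45037 probe sets and below 1 for 5257, which is how the division by the median was read from the values. No signal level is kept, so dim probe sets could not be filtered and depth has no meaning here: the number of arrays limits the precision. Per-array medians were between 0.957 and 1.01. The deposited values were put on the log2 scale. After 64 control probe sets were left out of 45101, 45037 were fitted with limma 3.58.1 (statmod 1.5.0, R 4.3.3; lmFit with 4 group means, eBayes, 12 residual and 3.60 prior degrees of freedom, two-sided, Benjamini-Hochberg over all at 0.05). All 163 member probe sets matched RefSeq by Entrez ID. A gene is shown by its most variable probe set. Named are genes called in both genotypes, up to 10 each way called in 1, the 6 of lowest p in each genotype comparison and the interaction, and the cardiac and smooth muscle lists, some of whose genes are not reported here. Other lists held 210 of 238 named genes with a probe set. The exact permutation test ran over 70 assignments. The fit was tested on simulated data. The alternatives were other scalings, pseudocount 0.1, filtering, robust or weighted fits, blocks, covariates, gene means and each array left out. Members and lists were chosen with earlier results of these data known. P-values measure the spread between specimens.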

Additional observations from a re-analysis of the deposited data

Results flagged for a closer look

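In 11 of 164 groups of 4 arrays tested over the named genes, 1 array lay far from the other three by Dixon's test at the 95% level, which chance alone meets in about 1 in 20 groups. The aorta held 7 of them. Kcna2, a voltage-gated channel, read -2.54 on Eln+/- replicate 2, against -0.29 to 0.03 on the other three. Kcnab1 read 1.12 on Eln+/- replicate 4, against 0.29 to 0.43. On that same replicate 2, Kcnn3, an endothelial calcium-activated channel, read 0.57, against -0.20 to -0.07, and Kcnmb4 read -0.65, against -0.27 to -0.24. Replicates 2 and 4 are the arrays high in T cell and thymocyte markers, and the part of those cells was not tested. Kcnk4 read -0.58 on Eln+/- replicate 3, against -0.08 to -0.03. In Eln+/+ aorta, Kcnj12 read -0.78 on replicate 3, against -0.27 to -0.24, and Kcne2 read 1.06 on replicate 1, against -0.09 to 0.01.

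The valve held the other four. Kcnd2 read 2.21 on Eln+/- replicate 1, against 0.34 to 0.65. In Eln+/+ valve, Kcnk4 read -0.34 on replicate 1 (others -0.02 to 0.01), Kcnk10 read -0.46 on replicate 4 (others 0.02 to 0.05) and the noncoding Kcnmb4os1 read 0.053 on replicate 2 (others -0.25 to -0.23). Replicate 2 is the Eln+/+ valve array that differs from the other three in Xist.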

How the results depend on the processing

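The counts for valve minus aorta depended on the arrays used, and the 3 counts of 0 for genotype and interaction were 0 under all alternatives run. In Eln+/+ the 2 calls became 8 with quantile normalization, 4 with only the 8 arrays compared and between 1 and 7 with 1 array left out. In Eln+/- the 33 calls became 17 with only the 8 arrays compared and between 16 and 38 with 1 array left out. Without aorta Eln+/- replicates 2 and 4 together, an alternative chosen after seeing the data, the counts were 4 and 15. The replicate block gave 2 and 35 calls as a random block (within-block correlation 0.0164) and 3 and 26 as a fixed one. Same-numbered arrays did not deviate together (correlations from -0.15 to 0.07 over 16 pairs, with 3 best with their own number), so the numbers were not taken as pairs.

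Of 108 single gene results under the alternatives, 2889 values kept sign and call, 74 lost a call, 33 gained one and 42 changed sign. In Eln+/-, 8 of the 19 genes called (Kcnj5, Kcne1, Kcnq1, Kcnip2, Kcna5, Kcnj12, Kcnj2 and Kcnab1) kept their call under all alternatives run. With the cardiac marker mean as a covariate, the valve genotype difference turned to 0.31 for Kcne4, 0.43 for Kcnmb1, -0.42 for Kcnj12, -0.67 for Kcnk3, -0.47 for Kcnj5, 1.48 for Kcnd3, -0.31 for Kcnn2, -0.57 for Kcnj11 and 0.67 for Kcnab1. It turned to 0.020 for Kcnk6 and 0.28 for Kcnma1 with the Xist covariate and to 0.064 for Kcnd3 with quantile normalization. In the valve, leaving out 1 array gave ranges of -0.74 to 0.36 for Kcnd3, -0.0018 to 0.23 for Kcne2 and -0.64 to 0.10 for Kcnma1. For valve minus aorta in Eln+/+ they were -0.40 to 0.15 for Kcnk6, -0.089 to 0.23 for Kcnn2, -0.048 to 0.31 for Kcnj11, -0.17 to 0.16 for Kcne3, -0.041 to 0.017 for Kcng2 and -0.077 to 0.036 for Kcnk13. In Eln+/- they were -0.10 to 0.19 for Kcnj8 and -0.53 to 0.059 for Kcne3. Kcnk13 and Kcng2 in Eln+/+ turned to 0.025 and 0.026 with array medians at 0 and to 0.042 and 0.024 with quantile normalization, and without aorta Eln+/- replicates 2 and 4 Kcnn3 and Kcne3 in Eln+/- turned to 0.0073 and 0.21. The causes were not tested. With 4 arrays a group and no signal level, small differences of dim genes cannot be judged.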

Other observations

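Among genes that work beside these channels, none passed between genotypes by limma. The lists were made of channel partners, cation channels and regulators of cardiac channel genes, so the kind of gene found in them is no result. Cacna1g, Hcn2 and Irx3 had the lowest adjusted p of the listed genes in the valve. Cacna1g, a T-type calcium channel of pacemaker cells, was higher in Eln+/- valve by 0.95 ± 0.24 on the log2 scale (SE, n = 4 against 4, limma adjusted p = 0.37), Hcn2 by 0.68 ± 0.17 (adjusted p = 0.37) and Irx3, a transcription factor of the conduction system, by 1.33 ± 0.34 (adjusted p = 0.37). In the aorta their differences were 0.14 ± 0.24, -0.13 ± 0.17 and -0.25 ± 0.34. Slc8a1, from the same lists, had a lower mean in Eln+/- valve but did not pass (-0.96 ± 0.32, limma adjusted p = 0.42). Cacna2d2, which had the largest tissue difference of the listed partners and cation channels in both genotypes, differed by 0.64 ± 0.41 between genotypes in the valve and 0.08 ± 0.41 in the aorta.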
